A study of Mus musculus with 6 samples.

Results

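Complement is a cascade of blood and tissue proteins that marks microbes and damaged cells and draws in phagocytes. In its classical pathway the recognition molecule C1q carries the proteases C1r and C1s, which cleave C4 and C2. The resulting convertase cleaves C3, where all pathways meet. Factor B builds the convertase of the alternative pathway, and the serpin encoded by Serping1 inhibits C1r and C1s. Most circulating components come from the liver, macrophages are a main tissue source of C1q, and fibroblasts and epithelia can produce several of the others.

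The expression of 9 complement genes, C1qa, C1qb, C1ra, C1rb, C1s1, C4b, C3, Cfb and Serping1, was examined in the mouse anterior prostate (AP). They were chosen by symbol among the 55076 rows measured, with their values in these same mice already known, and all 9 were found. Their difference between groups is therefore given as a description, without a test.

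RNA was sequenced from the whole AP of 20-week-old males, 3 per group. The OEx mice carried Pbsn-Cre and Rosa26 N1ICD/+, so that Cre, driven by the probasin promoter of prostatic epithelium, switched on the intracellular domain of Notch1 (N1ICD). The Ctrl mice are labelled wild type, whereas the paper describes Ctrl mice as Rosa26 N1ICD/+ without Cre, which would mean that both groups carried the N1ICD allele. Whole tissue was used, so fewer cells of a type and less RNA per cell cannot be told apart in any value below. Levels are in FPKM (fragments scaled to gene length and by a factor per library), which is per length and can be compared between genes.

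Depth, recovered from the FPKM values as reads on annotated genes, was 14762182 to 18650962 reads per mouse. The deposited FPKM values were not scaled to this depth. Reads per FPKM and kilobase of gene were 18.1 to 22.9 in OEx and 12.5 to 15.2 in Ctrl. The same number of reads thus gives a higher FPKM in Ctrl. Total FPKM was 253965 to 272224 in OEx and 467138 to 529972 in Ctrl. Notch1 was at 41.9, 47.6 and 78.9 FPKM in OEx replicates 1 to 3 and at 5.18, 5.55 and 3.34 FPKM in Ctrl, which fits the labels of all 6 mice. Replicates 1 and 2 of each group were much more alike than either was to replicate 3: their scatter was 2.30 times (OEx) and 2.17 times (Ctrl) the counting noise, against 10.2 to 12.3 times for pairs with replicate 3. The labels give them as separate mice, and they were kept so. Ctrl replicate 3 held seminal vesicle genes at a summed 16128 FPKM, led by Svs5, against at most 4.36 FPKM in any other mouse. OEx replicate 3 had the lowest summed fibroblast and macrophage markers of all 6 mice. The log2 difference of each member above the filter is therefore also given without OEx replicate 3. Leaving that mouse out had to raise the difference of the 7 members for which it was the lowest OEx mouse. With replicates 1 and 2 averaged within each group instead, the difference was 0.36 for C1qa, 0.25 for C1qb, 0.70 for C3 and 0.99 for C4b. In that setting it was -0.06 for C1s1, -1.06 for Serping1, -1.38 for C1ra and -7.18 for C1rb. Of the 12833 rows that averaged 1 FPKM or more, 12.9% were called higher and 15.7% lower in OEx (FDR under 0.05 and a change of over 2-fold), and the median log2 difference was -0.08.

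C1rb, which encodes a C1r protease, was by far the most abundant member in Ctrl AP and was far lower in OEx AP, nearly absent from replicates 1 and 2. It was at 1606, 1596 and 948 FPKM in Ctrl replicates 1 to 3 and at 1.03, 0.864 and 36.1 FPKM in OEx replicates 1 to 3. No OEx mouse came near a Ctrl mouse, but OEx replicate 3 kept 38.0 times the mean level of the other OEx mice. The group means were 1384 ± 377 FPKM in Ctrl and 12.7 ± 20.3 FPKM in OEx (SD, n = 3), a ratio of 109. It was 1460 against OEx replicates 1 and 2 alone and 38.4 against OEx replicate 3 alone. On the log2(FPKM + 1) scale the difference was -8.02 ± 1.13 (SE), and -9.43 without OEx replicate 3. The OEx values rest on 50, 48 and 1581 reads and the Ctrl values on 48812, 50196 and 35006 reads.

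In Ctrl replicate 1, the summed level of the 9 members was 1709 FPKM, so nearly all of it was C1rb. In OEx replicates 1 and 2 the sum was 302 and 304 FPKM, with C1rb a trace and C1qa and C1qb the largest terms. In OEx replicate 3 it was 92.8 FPKM, and C1rb was again the largest term.

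**Figure D1:**
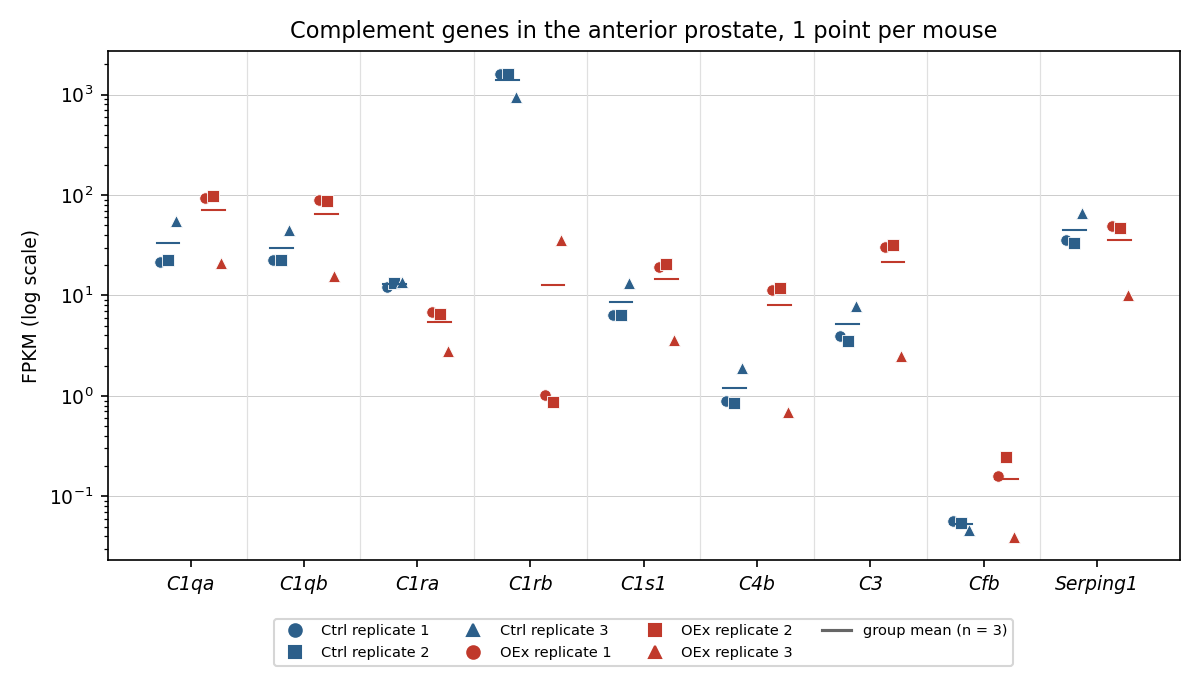
FPKM (log scale) of the 9 complement genes, 1 point per mouse, with Ctrl in blue, OEx in red, replicates 1 to 3 as circle, square and triangle, and bars at the group means. C1rb stood between 948 and 1606 FPKM in Ctrl and at or below 36.1 FPKM in OEx. OEx replicate 3 lay below every Ctrl mouse for the 8 members other than Cfb. For Cfb it had 2 reads, as did each Ctrl mouse, so no order can be read.

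C1rb lies in a cluster of C1r and C1s genes on chromosome 6 (GRCm38, GENCODE vM21), at 124570294 to 124581171 on the plus strand. Along the chromosome the order is C1rl, C1ra, C1s1, the pseudogene Gm18840, C1rb, C1s2 and then Lpcat3. C1ra and C1s1 are also members, and C1s2, a C1s protease gene outside the 9, is the neighbour of C1rb on the far side. The RefSeq promoter windows of C1rb, of its copy C1ra and of C1s2 are shown because C1rb and C1s2 shared a pattern that C1ra did not share in size. Each runs from 250 bases before to 50 bases after the RefSeq start on GRCm38.p6, 5′ to 3′ on the strand of the gene, at chr6:124570180-124570479 (plus), chr6:124512371-124512670 (plus) and chr6:124636036-124636335 (minus). Capitals mark TGGGAA, the core of the motif bound by RBPJ, the DNA-binding partner of N1ICD.
C1rb: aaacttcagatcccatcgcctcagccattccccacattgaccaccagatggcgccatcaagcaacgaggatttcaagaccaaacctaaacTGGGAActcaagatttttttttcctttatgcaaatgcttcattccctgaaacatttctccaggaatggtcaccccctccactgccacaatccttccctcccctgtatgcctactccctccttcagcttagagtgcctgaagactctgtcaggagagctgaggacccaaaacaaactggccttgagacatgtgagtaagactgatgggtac
C1ra: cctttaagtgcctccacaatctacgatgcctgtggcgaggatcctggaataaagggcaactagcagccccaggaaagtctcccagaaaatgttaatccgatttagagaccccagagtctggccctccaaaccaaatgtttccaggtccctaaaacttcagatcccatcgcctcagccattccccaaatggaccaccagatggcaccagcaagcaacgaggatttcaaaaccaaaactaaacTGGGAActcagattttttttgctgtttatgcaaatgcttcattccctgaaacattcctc
C1s2: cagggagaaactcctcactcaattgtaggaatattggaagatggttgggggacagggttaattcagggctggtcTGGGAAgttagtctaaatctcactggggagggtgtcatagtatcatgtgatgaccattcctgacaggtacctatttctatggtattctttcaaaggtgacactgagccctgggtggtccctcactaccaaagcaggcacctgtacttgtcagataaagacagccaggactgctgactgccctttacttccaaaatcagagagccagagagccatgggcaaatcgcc

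Each of the 3 windows held TGGGAA once, starting at positions -160, -9 and -176 from the RefSeq start of C1rb, C1ra and C1s2, where minus means before the start. On either strand, TGGGAA or its reverse TTCCCA occurs in 25.6% of all 32851 promoter windows, so the match is a description only. The C1rb and C1ra windows aligned over 148 bases with 93.9% identity, and the TGGGAA of both lies in that shared stretch. The RefSeq starts lie 216 bases (C1ra) and 136 bases (C1rb) inside the GENCODE gene start, so positions depend on the start used. RefSeq windows were found for 5 of the 9 members, and those of C1qb and C3 held no TGGGAA or TTCCCA. A second start of C1s1 held TTCCCA 35 bases after it. The half-site of the androgen receptor, AGAACA or TGTTCT, was found in the windows of C1qb and C1s1 and in 19.0% of all windows.

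C1s2 followed C1rb through all 6 mice. It was at 669, 668 and 385 FPKM in Ctrl and at 0.847, 0.361 and 21.7 FPKM in OEx, again with OEx replicate 3 as the highest of its group. In limma it was lower in OEx by a log2 difference of -7.18 ± 1.03 (SE, FDR 0.000967), and -8.46 without OEx replicate 3. The ratio of C1rb to C1s2 was 2.40, 2.39 and 2.46 in Ctrl and 1.22, 2.39 and 1.66 in OEx. The levels of both genes differed far more between groups than did their ratio. The ratios of OEx replicates 1 and 2 rest on few reads, some of which may come from the copies C1ra and C1s1.

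Over all tested rows averaging 5 FPKM or more, the 3 whose centred log2 profile over the 6 mice lay closest to that of C1rb were C1s2 (root mean square distance 0.451), Gm37223 (0.492) and Gsdma (0.738). Gsdma, a member of the gasdermin family of epithelial pore-forming proteins, was at 617, 613 and 449 FPKM in Ctrl and at 1.32, 1.22 and 12.5 FPKM in OEx. Gm37223 was at 601, 611 and 722 FPKM in Ctrl and at 0.130, 0.265 and 9.99 FPKM in OEx.

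C1ra, the paralogue of C1rb and the gene for the other mouse C1r protease, was also lower in OEx but far less so. It was at 12.1, 13.2 and 13.6 FPKM in Ctrl and at 6.86, 6.51 and 2.81 FPKM in OEx. The groups did not overlap, and the Ctrl mice lay close together. The means were 13.0 ± 0.769 and 5.39 ± 2.25 FPKM (SD, n = 3), a ratio of 2.40, with a log2 difference of -1.20 ± 0.277 (SE) and -0.86 without OEx replicate 3. With every mouse scaled to the same total FPKM the difference was -0.40, where the median of all rows moved to 0.65.

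The C1ra value is uncertain because of C1rb. Transcripts of both genes were 98.1% identical over 2428 aligned bases, and 59.2% of the 50-base words of C1rb occur in C1ra. C1rb was 133, 121 and 69.9 times the level of C1ra in Ctrl, and 0.150, 0.133 and 12.9 times in OEx. How reads that fit both genes were counted is not given in the sources used here, so reads of C1rb placed on C1ra cannot be told apart from C1ra reads. The reverse holds in OEx replicates 1 and 2, where C1ra had 408 and 444 reads and C1rb 50 and 48. Some of these few C1rb reads may come from C1ra, so the C1rb ratios to these mice are uncertain too.

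C1s1, the C1s protease gene next to C1ra, went the other way in 2 of the 3 OEx mice. It was at 6.46, 6.34 and 13.2 FPKM in Ctrl and at 19.4, 20.6 and 3.61 FPKM in OEx. OEx replicates 1 and 2 lay above every Ctrl mouse and OEx replicate 3 below every one. The log2 difference was 0.46 ± 0.624 (SE), less than its own error, and 1.19 without OEx replicate 3. It turned to -0.06 with replicates 1 and 2 averaged within each group. The pair C1s2 and C1s1 is 96.2% identical, so the same limit on shared reads holds, and the antisense gene Gm16567 inside C1s1 had 0 reads in every mouse.

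Further along the cluster, C1rl, a C1r-like protease gene chosen here after its values were seen, was at 17.5, 18.0 and 11.8 FPKM in Ctrl and at 0.350, 0.596 and 0.294 FPKM in OEx. Its log2 difference was -3.55 ± 0.181 (SE, FDR 2.9e-05 in limma). Unlike C1rb, C1rl was not higher in OEx replicate 3 than in the other OEx mice. Lpcat3, the next gene after C1s2, differed by -0.73 ± 0.145 (SE), short of the fold threshold.

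**Figure D2:**
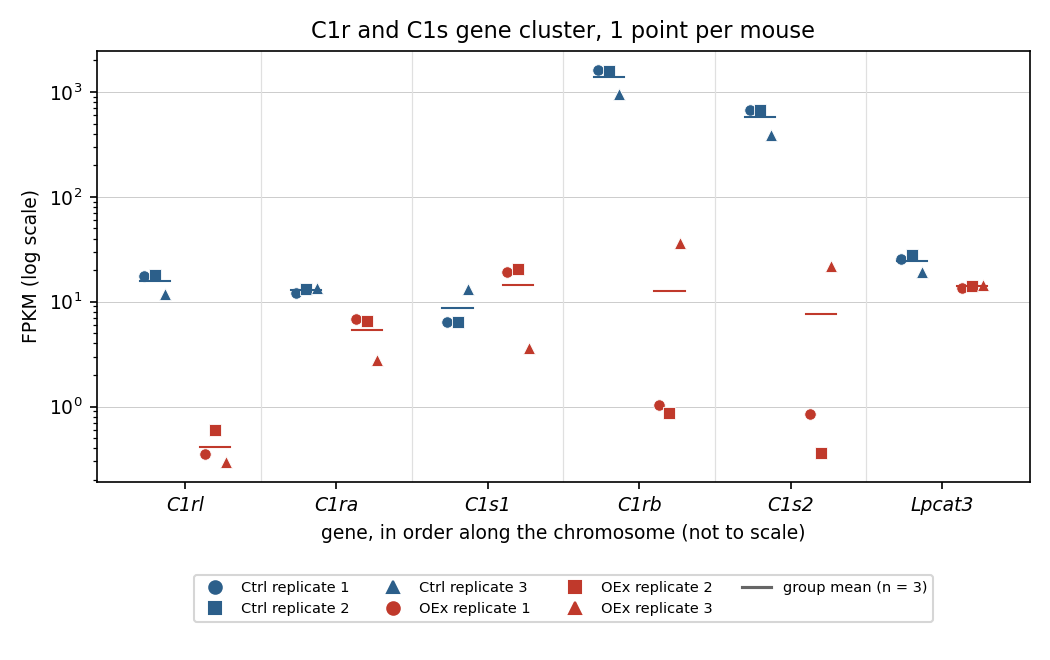
FPKM (log scale) of genes of the C1r and C1s cluster in chromosomal order (not to scale), 1 point per mouse, with bars at the group means. C1rb and C1s2 share 1 profile, with Ctrl at 385 FPKM or more and OEx replicate 3 between the groups, while C1s1, which precedes them, is above Ctrl in OEx replicates 1 and 2.

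C1qa and C1qb encode the A and B chains of C1q, which tissue macrophages make in quantity. C1qa was at 21.6, 22.7 and 55.2 FPKM in Ctrl and at 94.1, 96.7 and 21.1 FPKM in OEx. OEx replicates 1 and 2 were above all Ctrl mice and OEx replicate 3 just below the lowest, so the groups overlapped. The means were 33.2 ± 19.1 and 70.7 ± 42.9 FPKM (SD, n = 3), with a log2 difference of 0.92 ± 0.650 (SE), and 1.63 without OEx replicate 3.

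C1qb was at 22.5, 22.4 and 44.7 FPKM in Ctrl and at 89.7, 88.1 and 15.8 FPKM in OEx. The order of the mice was like that of C1qa, and the log2 difference was 0.81 ± 0.683 (SE), and 1.62 without OEx replicate 3. The ratio of C1qa to C1qb lay between 0.961 and 1.34 in the 6 mice.

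C1qc, the third chain, was not among the 9 and was tested. It was at 8.94, 10.6 and 24.8 FPKM in Ctrl and at 39.4, 42.6 and 8.98 FPKM in OEx, a log2 difference of 0.85 that was not called (FDR 0.272 in limma). Without OEx replicate 3, its lowest OEx mouse, the difference had to rise and was 1.54 and called (FDR 0.0200). With replicates 1 and 2 averaged within each group it was 0.29 and not called (FDR 0.776). C1qc was also the row whose profile lay closest to that of C1qa (distance 0.0628), followed by Srgn (0.105), the proteoglycan of leukocyte granules, and Thbs1 (0.123), the matrix glycoprotein thrombospondin 1. The ratio of C1qa to C1qc stayed between 2.14 and 2.42.

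Macrophage markers moved with the C1q genes. Summed over 12 markers, they were at 67.7, 68.1 and 132 FPKM in Ctrl and at 355, 328 and 59.5 FPKM in OEx, with the same mice high and low as for C1qa. Of the 11 tested, 4 were called higher with all 6 mice in the fit (12.9% of all rows). Among them were Mrc1 (log2 difference 2.61), Ctss (1.68) and Aif1 (1.05). Without OEx replicate 3, 10 were called higher (13.4% of all rows), among them Adgre1, Csf1r, Cd68, Tyrobp, Fcer1g and Lyz2. That mouse was below both other OEx mice for all 11, so leaving it out had to raise each difference. With replicates 1 and 2 averaged within each group, these named genes were not called (limma FDR 0.415 to 0.984). Ctss (0.169) and Aif1 (0.202) were not called there either, while Mrc1 was (0.00988). Ctss and Aif1 also lost their call when replicate 1 or 2 of either group was left out. Cd14 was not called in any of these fits (-0.40 with all mice), and Cd163 was under the filter.

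Relative to the markers, the level of C1q depended on the marker. The summed C1q chains were 0.783, 0.818 and 0.944 of the summed markers in Ctrl and 0.628, 0.694 and 0.771 in OEx. With each of the 12 markers taken alone, the ratio of C1qa was higher in every OEx mouse than in every Ctrl mouse for 2, lower for 4 and overlapping for 6. It was higher against Cd68, at 9.40, 9.72 and 8.72 in OEx and 6.79, 6.16 and 7.59 in Ctrl. The ratio of C1qa to Csf1r, the receptor of a macrophage growth factor, lay between 5.22 and 9.88 and overlapped between groups. Against Mrc1, the mannose receptor, the C1qa ratio was 101, 104 and 67.7 in Ctrl and 9.47, 10.4 and 4.84 in OEx. The part of macrophage RNA in the C1q difference was not tested.

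**Figure D3:**
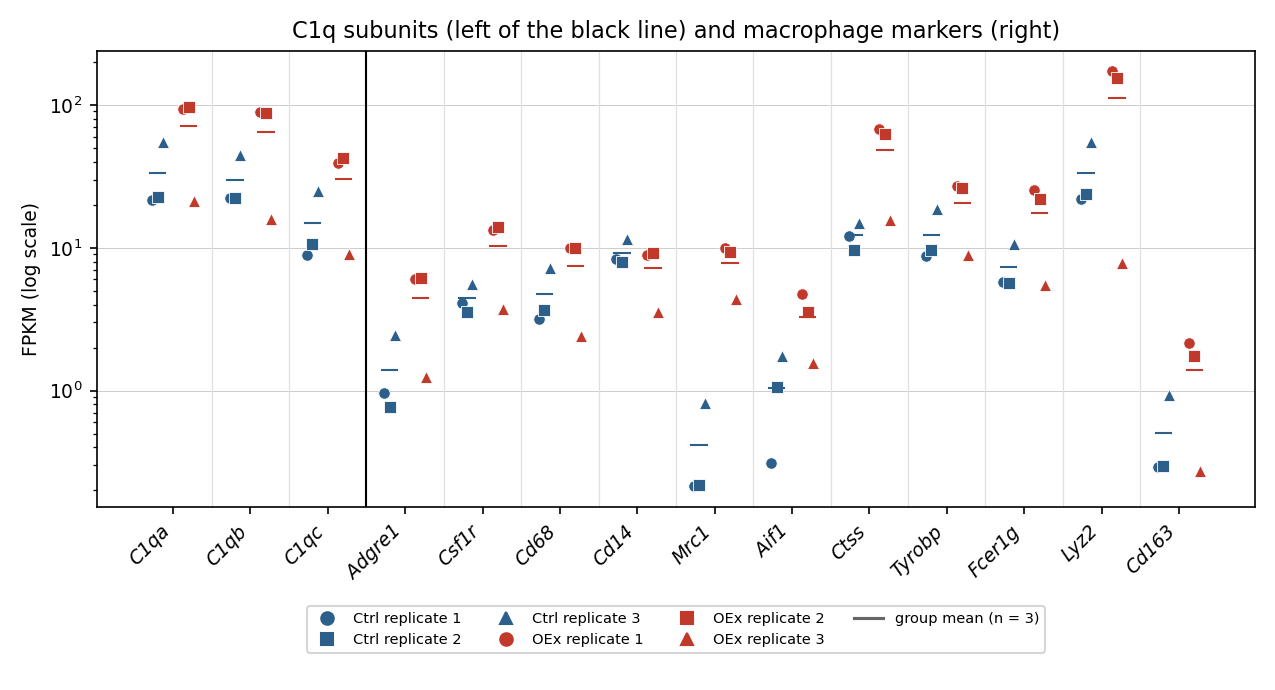
FPKM (log scale) of the 3 C1q chains and of 11 macrophage markers, 1 point per mouse, with bars at the group means. OEx replicates 1 and 2 lie above Ctrl for C1qa, C1qb and C1qc and for most markers. OEx replicate 3 lies near Ctrl or below for the C1q chains and most markers, with C1qa at 21.1 FPKM. For Mrc1 it lies far above Ctrl, at 4.37 FPKM against at most 0.816 FPKM.

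C3 encodes the central component, cleaved by every pathway. It was at 3.98, 3.54 and 7.93 FPKM in Ctrl and at 30.5, 31.9 and 2.49 FPKM in OEx. As for C1s1, OEx replicates 1 and 2 lay above every Ctrl mouse and OEx replicate 3 below every one. The means were 5.15 ± 2.42 and 21.6 ± 16.6 FPKM (SD, n = 3), with a log2 difference of 1.39 ± 0.872 (SE), and 2.46 without OEx replicate 3. OEx replicates 1 and 2 had 12.5 times the C3 level of OEx replicate 3.

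C4b, a gene for the C4 component that C1s cleaves, was at 0.898, 0.854 and 1.88 FPKM in Ctrl and at 11.3, 12.0 and 0.691 FPKM in OEx. Its mice fell in the same order as for C3, with 16.9 times more in OEx replicates 1 and 2 than in OEx replicate 3. The log2 difference was 1.58 ± 0.779 (SE), the largest positive difference among the 8 members above the filter, and 2.55 without OEx replicate 3. C4a, a 96.2% identical copy under the filter of 1 FPKM, had 40, 45 and 26 reads in OEx and 4, 11 and 6 in Ctrl, and some may be shared with C4b.

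The rows closest in profile to C3 were matrix genes of fibroblasts, Col1a1 (distance 0.146), Ccdc80 (0.170) and Lum (0.216). Summed over 8 fibroblast markers, the level was 62.9, 60.7 and 111 FPKM in Ctrl and 260, 265 and 27.6 FPKM in OEx. In limma with all 6 mice 0 of the 8 were called and 0 had an unadjusted p under 0.05. Without OEx replicate 3, 4 were called higher (13.4% of all rows). That mouse was the lowest for all 8, so leaving it out had to raise each difference. The ratio of C3 to these markers was 0.0632, 0.0584 and 0.0718 in Ctrl and 0.117, 0.121 and 0.0901 in OEx, so relative to the sum it was higher in every OEx mouse, OEx replicate 3 included. Against single markers this held for 5 of 8, while the ratios to Col1a1, Col3a1 and Lum overlapped between groups. The ratio of C4b to the sum was 0.0143, 0.0141 and 0.0170 in Ctrl and 0.0435, 0.0453 and 0.0250 in OEx, and it was higher in every OEx mouse against 7 of the 8 single markers. The ratio of C1s1 to the markers overlapped between groups (0.0744 to 0.131). These ratios were chosen with the levels known and carry no test, and the part of fibroblast RNA was not tested.

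Cfb, the gene for factor B, was barely detected. It was at 0.0566, 0.0547 and 0.0466 FPKM in Ctrl and at 0.160, 0.248 and 0.0392 FPKM in OEx. These values rest on 2 reads in each Ctrl mouse and on 9, 16 and 2 reads in the OEx mice. The ratio of the summed reads, scaled as the FPKM values are, was 3.01, with an exact 95% interval of 1.22 to 8.90 that covers counting error only and treats the mice of a group as 1 pool. Cfb was under the filter, and it overlaps Gm20547 on the same strand, so its reads may be shared with that gene.

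Serping1, the inhibitor of C1r and C1s, did not share the pattern of a clear rise in OEx replicates 1 and 2. It was at 35.3, 33.4 and 66.3 FPKM in Ctrl and at 49.3, 47.0 and 10.1 FPKM in OEx. OEx replicates 1 and 2 fell inside the range of the Ctrl mice and OEx replicate 3 far below it. The log2 difference was -0.55 ± 0.613 (SE) and turned to 0.17 without OEx replicate 3 and to 0.33 with equal total FPKM. Set against the summed fibroblast markers, Serping1 was lower in every OEx mouse, at 0.189, 0.178 and 0.367 against 0.561, 0.550 and 0.600 in Ctrl. Against single markers this held for 5 of 8, with ratios to Dcn of 1.33, 1.38 and 1.01 in OEx and 1.43, 1.48 and 1.55 in Ctrl. The ratios to Pdgfra, Pdgfrb and Fbln1 overlapped between groups.

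**Figure D4:**
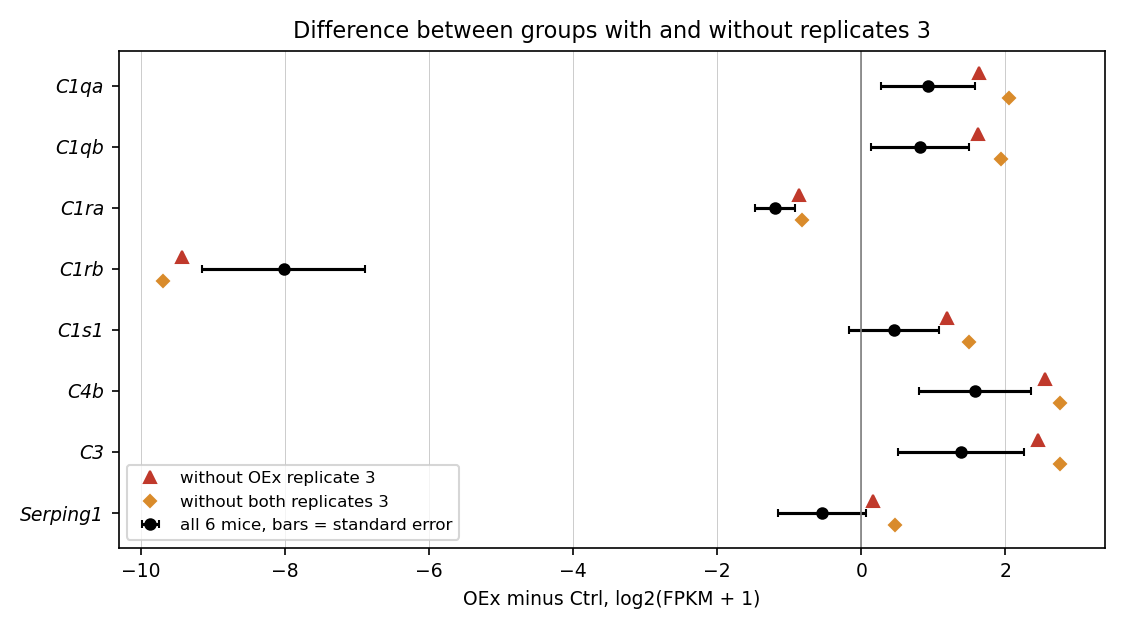
Difference OEx minus Ctrl in log2(FPKM + 1) for the 8 members above the filter, with all 6 mice (black, bars are the standard error), without OEx replicate 3 (red triangles) and without both replicates 3 (orange diamonds). C1rb stands at -8.02 and moves further down, the C1q genes, C1s1, C4b and C3 move up, and Serping1 goes from -0.55 to above 0.

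Of the 8 members above the filter, 2 (C1ra and C1rb) were lower in every OEx mouse than in every Ctrl mouse, as were 38.9% of all rows, and none was higher in every OEx mouse (33.4% of all rows). OEx replicates 1 and 2 were above every Ctrl mouse for 5 members (37.2% of all rows). OEx replicate 3 was below every Ctrl mouse for all 8 (44.9% of all rows), and below OEx replicates 1 and 2 for 7, C1rb being the exception (30.8% of all rows). Ctrl replicate 3 was above Ctrl replicates 1 and 2 for 7 members, again except C1rb (38.7% of all rows). Since the members were chosen on this contrast, nothing is read from these shares.

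The rest of the system was covered by a list of 46 further complement genes, of which 19 passed the filter. Of these 19, 2 were called higher (12.9% of all rows) and 3 lower (15.7% of all rows), with a median log2 difference of 0.51. Without OEx replicate 3, 9 were called higher (13.4% of all rows) and 2 lower (15.8%). That mouse was below both other OEx mice for 16 of the 19 (30.8% of all rows), so leaving it out had to raise those differences. With replicates 1 and 2 averaged within each group, 0 were called higher and 3 lower, against 1608 and 1994 of the 12833 rows.

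The genes called higher with all mice were Cfp and Clu. Cfp, the gene for properdin, which stabilises the alternative convertase, was at 1.70, 1.69 and 3.83 FPKM in Ctrl and at 17.0, 18.3 and 5.07 FPKM in OEx, all OEx mice lying above all Ctrl mice. Its log2 difference was 1.97 ± 0.481 (SE, FDR 0.0101 in limma). Clu, the gene for clusterin, a chaperone that also inhibits the terminal complex, was at 131, 128 and 223 FPKM in Ctrl and at 487, 476 and 196 FPKM in OEx. It overlapped between groups through both replicates 3, with a log2 difference of 1.20 ± 0.401 (FDR 0.0344), and was no longer called when replicate 1 or 2 of either group was left out (log2 0.97 to 1.08).

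Besides C1s2, the genes called lower were the membrane regulators Cd55 and Cd59a, which protect host cells from the convertases and from the terminal pore. Cd55 was at 5.44, 5.55 and 5.64 FPKM in Ctrl and at 2.07, 2.14 and 1.50 FPKM in OEx, with a log2 difference of -1.18 ± 0.116 (FDR 0.000197). Cd59a was at 5.61, 5.37 and 10.1 FPKM in Ctrl and at 2.85, 3.62 and 1.50 FPKM in OEx, a log2 difference of -1.13 ± 0.300 (FDR 0.0141). Without OEx replicate 3 it was -0.88, below the fold threshold, and it was also not called without Ctrl replicate 3. With equal total FPKM neither was called, at -0.50 (Cd55) and -0.41 (Cd59a), nor with the 20 most abundant rows left out of the total (-0.68 and -0.61) or with an equal upper quartile (-0.97 and -0.91). The FPKM values of neither gene overlapped between groups.

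The 7 further genes called higher once OEx replicate 3 was left out included C1qc, Fcna, Cfi, C3ar1, C5ar1 and Itgb2, 3 of them receptors of complement fragments or a receptor chain. C3ar1, the receptor of the C3a fragment, was at 0.371, 0.233 and 0.566 FPKM in Ctrl and at 2.53, 2.70 and 0.515 FPKM in OEx. Its OEx replicates 1 and 2 were high and OEx replicate 3 lay inside the range of the Ctrl mice. C2, the gene of the component cleaved with C4, was under the filter, with 42, 34 and 73 reads in Ctrl and 89, 134 and 25 in OEx, and overlaps Zbtb12 and Gm20547.

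**Figure D5:**
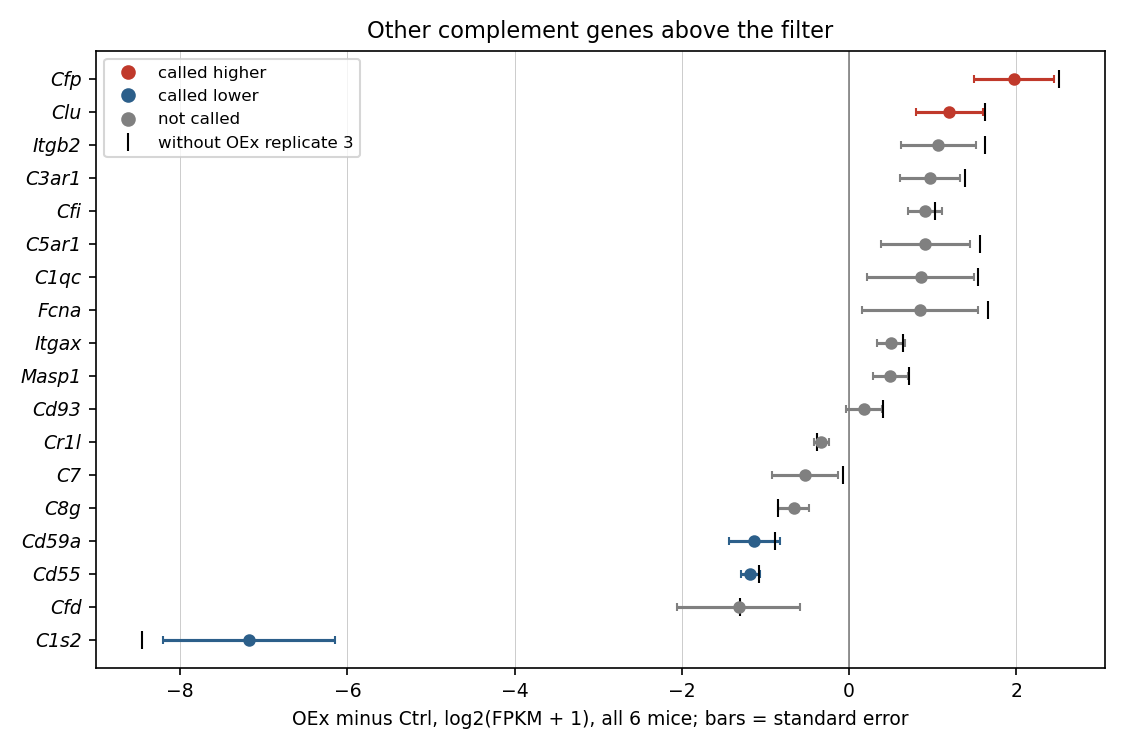
Difference OEx minus Ctrl in log2(FPKM + 1) for 18 of the 19 further complement genes above the filter, all 6 mice, with the standard error as bars and a black tick for the value without OEx replicate 3. Cfp and Clu (red) were called higher and C1s2, Cd55 and Cd59a (blue) lower, and C1s2 at -7.18 stands far from the rest.

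Other cell markers moved with the groups too, and their part in these values was not tested. Smooth muscle markers, led by Acta2, summed to 1043 to 2245 FPKM in Ctrl and 351 to 418 FPKM in OEx, with 5 of 5 called lower, 4 without OEx replicate 3 and 1 with equal total FPKM. Epithelial markers, led by the secretory gene Pbsn, summed to 24798 to 25011 FPKM in Ctrl and 3134 to 6549 FPKM in OEx. OEx replicate 3, which kept the most C1rb of its group, also had the highest of the OEx sums. Basal markers, led by Krt5, summed to 99.4 to 122 FPKM in Ctrl and 3.72 to 5.32 FPKM in OEx. Endothelial markers, led by Pecam1, summed to 10.8 to 14.6 FPKM in Ctrl and 4.99 to 6.05 FPKM in OEx, and those of other leukocytes, led by Nkg7, to 2.17 to 4.44 and 2.86 to 11.0 FPKM. Of the 6 hepatocyte markers, led by Apoa2 at 1.31 to 5.47 FPKM, Alb, Fga and Serpina1a had 0 reads in all 6 mice. Ttr had 15, 30 and 20 reads in OEx and 0, 3 and 0 in Ctrl, and Apoa1 had at most 2 reads in any mouse.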

How the data were processed

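The authors deposited FPKM per gene symbol, 1 table per mouse, from their own pipeline. The submitters' processing notes name HISAT2 2.0.5, featureCounts 1.5.0-p3, StringTie 1.3.3b and CASAVA, and the genome build is not given in the sources used here. Per the labels, AP was to be cleaned of secretions before RNA extraction. Reads behind the FPKM values were recovered with GENCODE vM21 exon lengths (53636 rows, tolerance 0.05 reads, 96.9% to 97.5% whole), and serve depth and low counts only.

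OEx and Ctrl were compared with limma 3.58.1 (R 4.3.3) on log2(FPKM + 1), over the 12833 rows averaging 1 FPKM or more, with eBayes and an intensity trend. A call needed a Benjamini-Hochberg FDR under 0.05 over all these rows and an absolute log2 fold change above 1, and a fold change on this scale understates that of low genes. In simulated data (12134 rows), 100% of 200 genes changed by a log2 size of 2 were recovered and 0 unchanged genes were called. This checks only that the steps of the fit run as intended. The spread between the real mice was uneven, so the simulation gives no error rate or power for them. The labels do not say that the mice came from separate litters, so p-values measure the spread between these samples. Same-numbered mice of both groups did not deviate together (mean correlation -0.230).

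The members and lists were chosen with earlier results of these data known. Named genes are the members, Notch1, the called genes of the list of 46, C1qc, C2, C4a, the macrophage markers, the leading marker of each other list and the 3 rows nearest in profile to C1rb, C1qa and C3, with distances as root mean square over 7120 rows. Others were chosen after their values were seen. Some genes of the lists are counted in the totals but not reported here. Alternatives were other pseudocounts, filters and scalings, a replicate block and leaving out mice. Promoters are from RefSeq. Python 3.11.15, pandas 2.3.3 and biopython 1.88 were used.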

Additional observations from a re-analysis of the deposited data

How the results depend on the processing

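The counts of calls over all rows depended on scaling, and the most abundant row took 14.3% to 22.0% of the reads in Ctrl and at most 1.12% in OEx. With equal total FPKM, 4458 rows were called higher and 504 lower, and the median log2 difference moved from -0.08 to 0.65. Leaving out the 20 most abundant rows first gave 3477 and 717, an equal upper quartile gave 1326 lower, and a filter of 5 FPKM gave 681 higher. Leaving out 1 mouse gave 1614 to 1726 higher and 1987 to 2043 lower.

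Of the 46 further complement genes, 2 were called higher and 3 lower. The higher count was 4 with a pseudocount of 0.1, 1 without a filter, 8 with equal total FPKM, 6 with the 20 rows left out, 5 with an equal upper quartile, 8 without both replicates 3 and 0 with replicates 1 and 2 averaged, the last 2 settings chosen after seeing the data. The lower count was 1 with a filter of 5 FPKM, with equal total FPKM, with the 20 rows left out and with an equal upper quartile. Leaving out 1 mouse gave 1 to 9 higher and 2 to 3 lower. C1s2 was called lower in every setting.

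Whether the replicate numbers pair the mice is not known here. A fit with the replicate number as a block called 1611 rows higher and 1986 lower. Of the further complement genes, 1 (Cfp) was higher and 2 (C1s2 and Cd55) lower.

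The sign of Cd14 turned to 0.40 with equal total FPKM, 0.18 with the 20 rows left out and 0.13 without both replicates 3. Of the members, Serping1 turned from -0.55 to 0.33, 0.09 and 0.48 in these settings, and the cause was not tested. C1qa, C1qb, C3, C4b, C1ra and C1rb kept their sign throughout.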

Other observations

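Of the 27 further complement genes under the filter, 8 had 0 reads in all 6 mice, which allows up to 3 reads in a library. C6, a component of the terminal pore, had 49, 53 and 3 reads in OEx replicates 1 to 3 and 0 in each Ctrl mouse. Masp2, a protease of the lectin pathway, had 62, 74 and 65 reads in OEx and 4, 1 and 10 in Ctrl. Cd46, a membrane regulator, had 75, 89 and 89 reads in OEx and 9, 15 and 15 in Ctrl. Both were higher in all OEx mice, OEx replicate 3 included, unlike Itgam, a chain of complement receptor 3, with 145, 156 and 15 reads in OEx and 4, 14 and 5 in Ctrl. These genes were chosen after their values were seen and were not tested.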
